A study of Mus musculus with 6 samples.

Results

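The transcription factors that specify hepatoblasts, the bipotent progenitors of hepatocytes and bile duct cells, were followed through a sort of embryonic mouse liver. The 8 genes Hnf4a, Foxa1, Foxa2, Foxa3, Onecut1, Onecut2, Prox1 and Cebpa were taken by the gene symbol of the array annotation. All 8 were present, with 16 probe sets, among 20677 genes and 38011 probe sets that named a single gene. No probe set named a member together with another gene.

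The material was wild type C57Bl6 liver at E12.5, with 6 samples on 1 Affymetrix Mouse Genome 430 2.0 array each. The samples were unsorted liver cells, cells positive for the adhesion molecule ALCAM, and ALCAM+ cells further divided by podoplanin (PDPN+ and PDPN-) or by the integrin alpha 8 subunit (ITGA8+ and ITGA8-). The series concerns the isolation of hepatic stellate cells, so hepatoblasts were not what the sort aimed at. With no replicate in any group, no test was possible, and each difference below separates 2 arrays. Where a gene has several probe sets, they read the same RNA on the same array, so their agreement repeats neither sample nor sort.

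The deposited intensities fell into 2 sets. The 4 fraction arrays had trimmed means of 996 to 997, while liver and ALCAM+ cells had 195 and 329, so levels were read within a set. Probe sets differ in brightness for reasons unrelated to transcript number, so levels were not ranked between genes. The probe set with the greatest mean log2 intensity stood for its gene. Genes were compared where at least 1 of the 2 arrays read above 109, which is the median over all values and is called the floor here. Differences are of log2(intensity + 16) and understate the change of weak genes; "called" means past 2-fold. In bulk RNA, fewer hepatoblasts and less RNA per hepatoblast cannot be told apart.

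Hepatoblast identity is built by a network in which these factors bind each other's genes and a shared set of liver enhancers. The FOXA proteins open chromatin ahead of the others, HNF4A is a nuclear receptor that drives epithelial and metabolic genes, the ONECUT factors act in bile duct formation, PROX1 is a homeodomain protein needed for hepatoblast migration, and C/EBP alpha favours hepatocyte over bile duct fate. Several have other sites of expression: Cebpa in myeloid cells, Prox1 in lymphatic endothelium and cardiac muscle, and Foxa1 and Foxa2 in gut and lung epithelium.

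Because these factors bind each other's genes, the RefSeq windows of 300 bases around start sites (250 before, 50 after, assembly GRCm38.p6) were searched. A link between these windows and the array levels was not tested. Windows of 7 of the 8 genes, 11 in all, were used. On both strands, 7 short motifs were sought: TGTTTAC and TATTTAC for FOXA, ATCAAT and ATCGAT for ONECUT, the HNF1 palindrome, CAAAGTCCA for HNF4 and TTGCNNAA for C/EBP; each window with a match held a single one, so none overlapped another. Those with a match are printed 5′ to 3′ on the gene's strand, with the motif in capitals. Hnf4a is shown at both start sites, which lie 40298 bases apart, because it has a known pair of alternative promoters. The window at chr2:163506607-163506906 on the plus strand is the upstream Hnf4a start, and chr2:163546905-163547204, also plus, the downstream one. Next comes Foxa1 at chr12:57546062-57546361 on the minus strand, and last the most upstream of the Foxa2 starts, chr2:148046920-148047219 on the minus strand.
Hnf4a upstream start: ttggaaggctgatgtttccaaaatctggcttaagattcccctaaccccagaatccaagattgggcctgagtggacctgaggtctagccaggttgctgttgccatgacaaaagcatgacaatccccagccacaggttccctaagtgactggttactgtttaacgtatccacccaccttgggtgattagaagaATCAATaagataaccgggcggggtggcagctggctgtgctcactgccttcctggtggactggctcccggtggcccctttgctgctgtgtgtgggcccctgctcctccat
Hnf4a downstream start: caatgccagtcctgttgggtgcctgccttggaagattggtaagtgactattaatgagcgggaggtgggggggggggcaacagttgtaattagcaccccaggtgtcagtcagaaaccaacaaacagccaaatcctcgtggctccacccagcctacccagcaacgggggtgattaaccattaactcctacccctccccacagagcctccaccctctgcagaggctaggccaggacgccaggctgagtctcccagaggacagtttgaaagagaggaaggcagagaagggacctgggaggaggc
Foxa1: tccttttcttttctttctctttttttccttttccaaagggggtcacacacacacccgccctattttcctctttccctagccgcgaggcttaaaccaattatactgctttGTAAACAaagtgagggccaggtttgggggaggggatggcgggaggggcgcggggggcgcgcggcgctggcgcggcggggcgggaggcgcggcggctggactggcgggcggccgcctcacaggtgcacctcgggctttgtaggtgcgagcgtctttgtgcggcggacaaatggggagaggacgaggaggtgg
Foxa2: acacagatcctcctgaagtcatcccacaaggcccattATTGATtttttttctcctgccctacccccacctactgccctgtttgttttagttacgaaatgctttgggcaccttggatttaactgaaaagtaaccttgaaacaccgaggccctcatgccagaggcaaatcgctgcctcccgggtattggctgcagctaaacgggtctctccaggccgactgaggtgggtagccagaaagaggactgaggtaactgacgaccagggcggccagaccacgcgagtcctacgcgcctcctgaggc
The Hnf4a window holds ATCAAT, the Foxa2 window its reverse complement, and the Foxa1 window the reverse complement of TGTTTAC. Over all 32851 mouse windows of this length, ATCAAT was found in 7.54% and TGTTTAC in 3.65%. The other motifs, found in no member window, occurred in 3.04% of all windows for TATTTAC, 0.925% for ATCGAT, 0.00913% for the HNF1 palindrome, 0.475% for CAAAGTCCA and 10.8% for TTGCNNAA. A match describes letters and not a bound site.

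Across the 4 fractions the 8 factors shared the top places of their order, a comparison added after the data were seen. Each was highest in PDPN- cells, next in PDPN+ cells, and lower in both ITGA8 fractions. PDPN- was the highest fraction for 26.1% of all genes above the floor in any fraction and for 8 of 8 factors. PDPN- first with PDPN+ second held for 15.4% of genes and again for 8 of 8, and both podoplanin arrays exceeded both integrin arrays for 20.0% of genes and 8 of 8 factors. The podoplanin and integrin arrays come from different splits of ALCAM+ cells, so marker and split cannot be told apart between them. By single probe sets, PDPN- was highest in 16 of 16, and the podoplanin arrays were above the integrin arrays in 14 of 16. The exceptions were 1421336_at of Prox1, where ITGA8- at 85 lay above PDPN+ at 78, and 1421447_at of Onecut1, under the floor in every array.

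**Figure D1:**
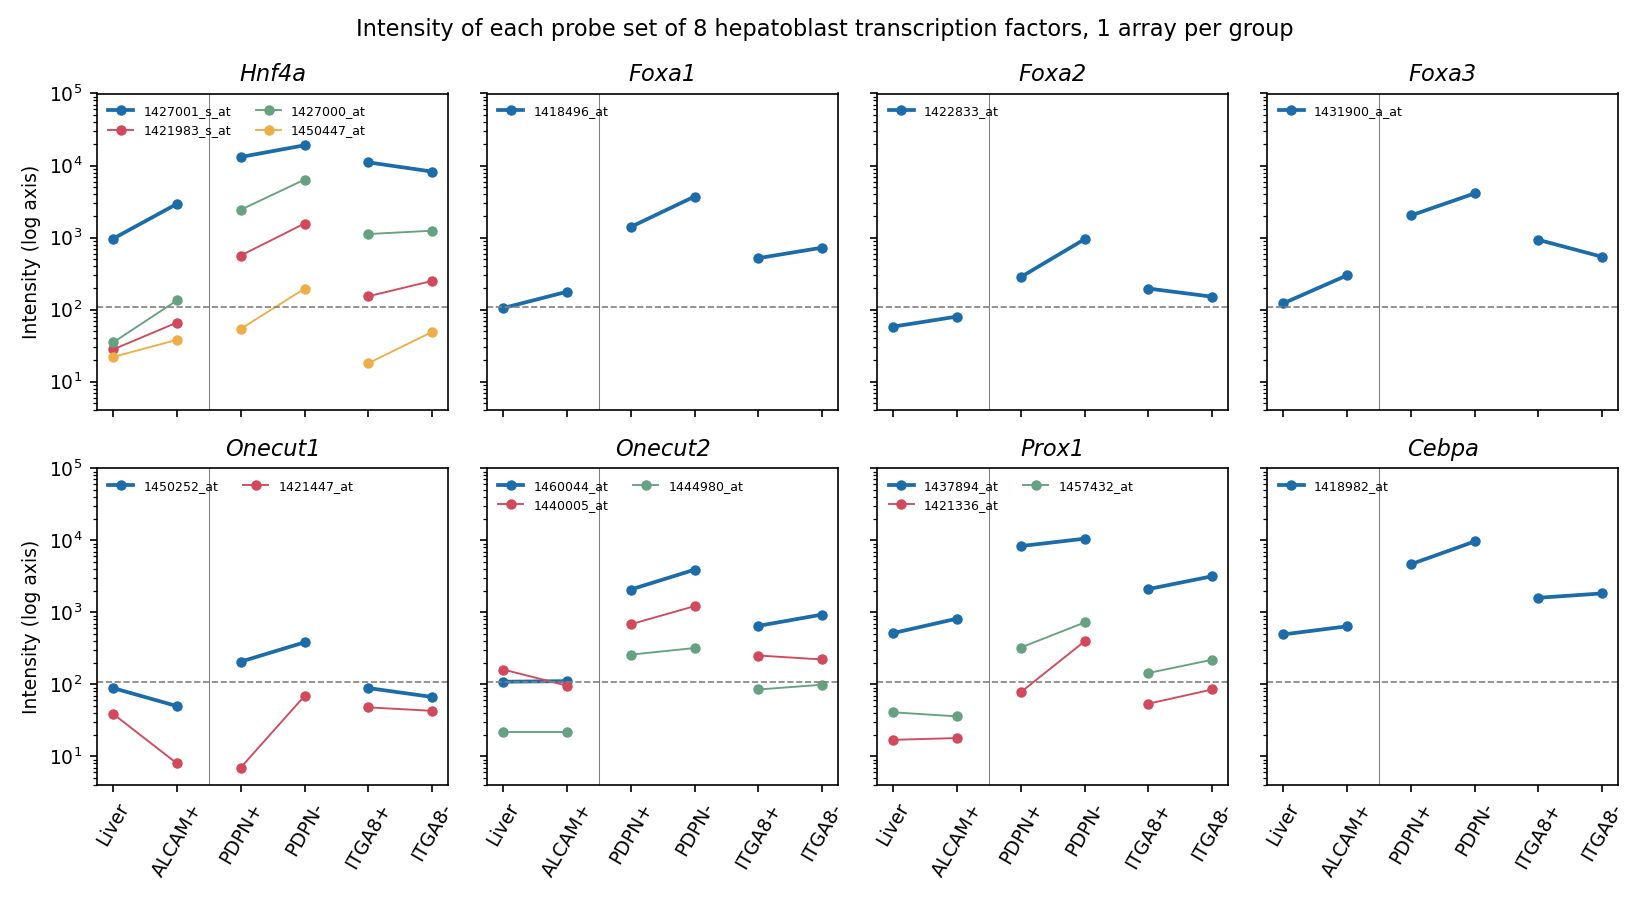
Intensity of every probe set (log axis) of the 8 factors in the 6 samples, 1 array each; the thick line is the probe set that represents the gene, thin lines its other probe sets, the dashed line the floor of 109, and the vertical line separates the 2 sets of arrays. In every panel the PDPN- point is the highest of the 4 fractions.

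Hnf4a, whose product is required for the hepatocyte epithelium, had 4 probe sets. The representative one, 1427001_s_at, read 965 in liver and 2932 in ALCAM+ cells. The fractions had 13149 (PDPN+), 19091 (PDPN-), 11074 (ITGA8+) and 8237 (ITGA8-). This probe set was above the floor in every array, whereas the other 3 were under it in liver. 1427000_at was at 35 and 134 in liver and ALCAM+ cells, and at 2428, 6377, 1120 and 1244 in PDPN+, PDPN-, ITGA8+ and ITGA8- cells. In that same order 1421983_s_at had 28 and 66, then 563, 1565, 153 and 250. The weakest, 1450447_at, exceeded the floor in PDPN- cells alone, at 195, against 54 in PDPN+, 18 in ITGA8+ and 49 in ITGA8- cells. The probe sets gave different sizes for 1 gene: PDPN+ minus PDPN- was -0.54 with the brightest and -1.39, -1.45 and -1.59 with the other 3. They also split in direction between the integrin fractions, where the brightest was higher in ITGA8+ cells (0.43) and 1427000_at and 1421983_s_at lower (-0.15 and -0.65), with 1450447_at under the floor in both. The Hnf4a transcripts read by each probe set were not resolved here.

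The forkhead factors of the FOXA family, which bind compacted chromatin, had 1 probe set each. Foxa1 was at 105 in liver and 177 in ALCAM+ cells, and at 1404 (PDPN+), 3714 (PDPN-), 518 (ITGA8+) and 724 (ITGA8-) in the fractions. Foxa2, the first of the family to act in endoderm, was at 58 and 80 in liver and ALCAM+ cells, under the floor, and at 283, 948, 196 and 151 in the fractions in that order. Foxa3, the member that persists most in adult hepatocytes, read 122 and 299, then 2025, 4103, 930 and 540. All 3 genes were highest in PDPN- cells, with a range over the fractions of 6.99-fold for Foxa1, 5.77-fold for Foxa2 and 7.41-fold for Foxa3. They parted in the integrin split: Foxa3 and Foxa2 were higher in ITGA8+ cells and Foxa1 in ITGA8- cells, each by less than 2-fold.

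Onecut1, also known as HNF6, stayed near the floor. Its better probe set, 1450252_at, had 89 in liver and 50 in ALCAM+ cells, with 207 and 384 in the PDPN+ and PDPN- and 89 and 67 in the ITGA8+ and ITGA8- fractions, so that only the podoplanin arrays passed the floor. 1421447_at ranged from 7 to 69 over the 6 arrays and passed it nowhere. Onecut2, its paralog, was clearer: 1460044_at read 109 in liver, 111 in ALCAM+ cells, 2076 and 3915 in the PDPN+ and PDPN- fractions, and 650 and 932 in the ITGA8+ and ITGA8- fractions. The others followed, with 1440005_at at 684, 1221, 252 and 222 and 1444980_at at 259, 320, 85 and 99 over the same fractions. All 3 Onecut2 probe sets had PDPN- highest and both integrin fractions lowest.

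Prox1, a prospero homeobox factor, read 516 in liver and 819 in ALCAM+ cells with 1437894_at, and 8328 (PDPN+), 10545 (PDPN-), 2106 (ITGA8+) and 3173 (ITGA8-) in the fractions. Its weaker probe sets had 325, 724, 144 and 220 (1457432_at) and 78, 396, 54 and 85 (1421336_at) over PDPN+, PDPN-, ITGA8+ and ITGA8- cells. As with Hnf4a, the brightest probe set gave the smallest podoplanin difference (-0.34) and the fainter ones larger differences (-1.12 and -2.13). For Onecut2 this did not hold, since the faintest gave -0.29 and the brightest -0.91. Cebpa, a leucine zipper factor of hepatocytes and granulocytes, was at 494 in liver and 641 in ALCAM+ cells, at 4657 and 9649 with and without PDPN, and at 1595 and 1834 with and without ITGA8. Both integrin fractions of Cebpa lay close together and under both podoplanin fractions.

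Centred on their mean over the fractions, 7 factors could be compared in shape; Onecut1 was left out, being under the floor in the integrin arrays. Cebpa and Onecut2 were the closest pair, 0.26 apart on the log2 scale, and Hnf4a stood farthest from the rest, 1.13 to 1.44 from each of the other 6. Its range of 2.32-fold over the fractions was below that of the others, which ran from 4.98-fold for Prox1 to 7.41-fold for Foxa3. This rests on 1427001_s_at: as deposited, ITGA8+ minus PDPN- was -0.78 with it but -2.49 with 1427000_at, -3.23 with 1421983_s_at and -2.63 with 1450447_at, where the other factors had -1.93 to -2.80.

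**Figure D2:**
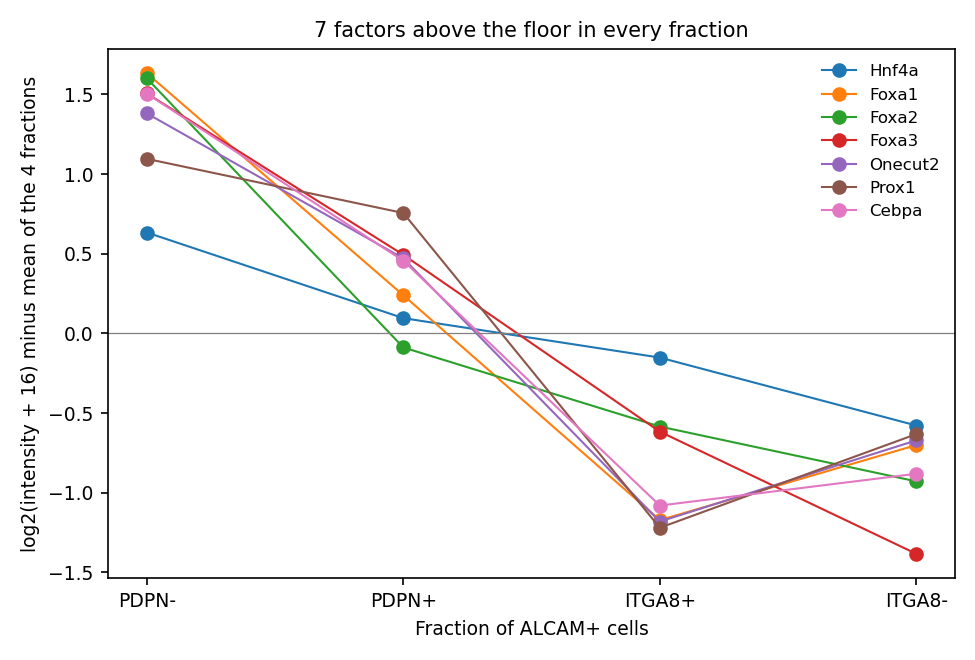
Level of 7 factors in each fraction of ALCAM+ cells, 1 array each, as log2(intensity + 16) minus the gene's mean over the 4 fractions; lines join the points of a gene and imply no order of samples. All 7 are above their mean in PDPN- cells and below it in both ITGA8 fractions, and Foxa2 alone is below its mean in PDPN+ cells.

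The podoplanin split asks how ALCAM+ cells with and without this surface glycoprotein differ. All 8 factors were lower in PDPN+ than in PDPN- cells and 4 were called: Foxa2 3.22-fold lower, Foxa1 2.63-fold, Cebpa 2.07-fold and Foxa3 2.02-fold. Of all 13419 genes tested 7.82% were called lower and 19.8% higher. The median of the factors was -0.96, beside 0.04 over all genes. Onecut2 (-0.91), Onecut1 (-0.84), Hnf4a (-0.54) and Prox1 (-0.34) did not reach 2-fold. By probe set, 15 of 15 above the floor were lower and 9 past 2-fold, against 7.65% of all probe sets. Cebpa and Foxa3 lost the call under loess (-0.91 and -0.95) and quantile normalisation (-0.94 and -0.97). Onecut1 gained it under both settings (-1.19 with each), and Foxa3 also lost it with a pseudocount of 64 (-0.996). Averaging the probe sets of each gene raised the count to 7 of 8, against 7.38% of all genes. With 1 PDPN- array, podoplanin status and that array's own deviation cannot be told apart.

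Other liver genes were listed beside the factors. Of 24 other liver-enriched transcription factors 22 were tested in this split, with 4 higher and 8 lower in PDPN+ cells (median -0.39). Lowest were Nr1h4, the bile acid receptor gene, at -3.20, and Nr0b2, a corepressor that it induces, at -2.43. Nr0b2 was near the floor, at 124 in PDPN- and 10 in PDPN+ cells. Gata4 at 2.41 and Gata6 at 1.58, zinc finger factors of septum transversum mesenchyme as well as endoderm, went the other way. Zbtb20 (1.51) and Zhx2 (1.09) were also called higher in PDPN+ cells. Onecut3 and Lin28b were under the floor in every array. Of 23 hepatoblast structural and secreted genes tested 2 were lower, Apoc3 at -1.88 and Apob at -1.03, both apolipoprotein genes, and none higher (median -0.55). The summed intensity of the 24 measured genes of that list was 319714 in PDPN+ and 434803 in PDPN- cells, next to 240727 in ITGA8+ and 208487 in ITGA8- cells, so hepatoblast products were present in every fraction of the stellate cell sort. Alb and Afp, the albumin and alpha-fetoprotein genes, read 25926 and 32178 in PDPN- cells, where the highest value of any probe set was 34299.

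Cell types that use the same factors were checked by their markers. Myeloid markers, relevant to Cebpa, were called higher in PDPN+ cells in 11 of 11 tested (median 5.51), and their summed intensity over 14 genes was 44404 in PDPN+ but 573 in PDPN- cells, and 4292 and 2786 with and without ITGA8. In PDPN- cells, where Cebpa peaked, 13 of these 14 genes were at or under the floor; S100a8, a neutrophil granule gene, was at 16 there and at 8407 in PDPN+ cells, and Mpo, of neutrophil precursors, at 1 and 1553. Endothelial markers, relevant to Prox1, were called higher in PDPN+ cells in 8 of 8, with a summed intensity over 11 genes of 9245 with and 719 without PDPN, and 10184 with and 11230 without ITGA8. The lymphatic receptor gene Flt4 was at 95 in PDPN- cells, under the floor, and at 2137 in PDPN+ cells. Cardiomyocyte markers, also relevant to Prox1, summed to 13952 in PDPN+ and 610 in PDPN- cells over 8 genes, and to 3168 with and 9871 without ITGA8. In all 3 lists the PDPN- array had the lowest sum of the fractions, and the myeloid and cardiomyocyte sums were highest in PDPN+ cells. Cebpa and Prox1 were highest in PDPN- and next in PDPN+ cells. The cells that gave the Cebpa and Prox1 signal in each fraction were not tested. Of 9 gut, pancreas and lung epithelial markers, relevant to Foxa1 and Foxa2, 8 were at or under the floor in PDPN- cells and 9 in the other 5 arrays. Cdx1, Cdx2, Pdx1, Ptf1a, Sftpc, Sox2, Isx and Neurog3 passed it nowhere, and Nkx2-1, a lung and thyroid factor, was the exception at 122. The myeloid genes Csf3r, Elane and Itgam and the endothelial gene Sox18 were also under the floor in every array. Mesothelial markers were called higher in PDPN+ cells in 8 of 8 , and stellate markers had a median of -0.66, with 8 of 10 below 0; Lrat and Ngfr were called lower and Hand2 higher.

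The integrin split asks what goes with integrin alpha 8, which the series uses to mark stellate cells. None of the 7 factors tested was called, where 5.94% of 13866 genes were lower and 5.29% higher. Prox1 (-0.59), Onecut2 (-0.51), Foxa1 (-0.47) and Cebpa (-0.20) had lower values in ITGA8+ cells, and Foxa3 (0.77), Hnf4a (0.43) and Foxa2 (0.34) higher ones. The median was -0.20, beside 0.00 over all genes. No member probe set was called lower among 11, against 8.03% of all. The direction for Hnf4a turned with averaged probe sets (-0.33) or with specific probe sets, meaning those not named _s_at or _x_at (-0.15). Of 19 other liver factors tested 2 were called, both higher in ITGA8+ cells: Nr1h4 at 2.44 and Cebpd, a C/EBP factor of acute phase and mesenchymal cells, at 1.25. Of 23 structural and secreted genes only Epcam, an epithelial adhesion molecule, was called, at -1.37. In contrast to the factors, stellate markers were called higher in 6 of 10 and mesothelial markers lower in 7 of 8.

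**Figure D3:**
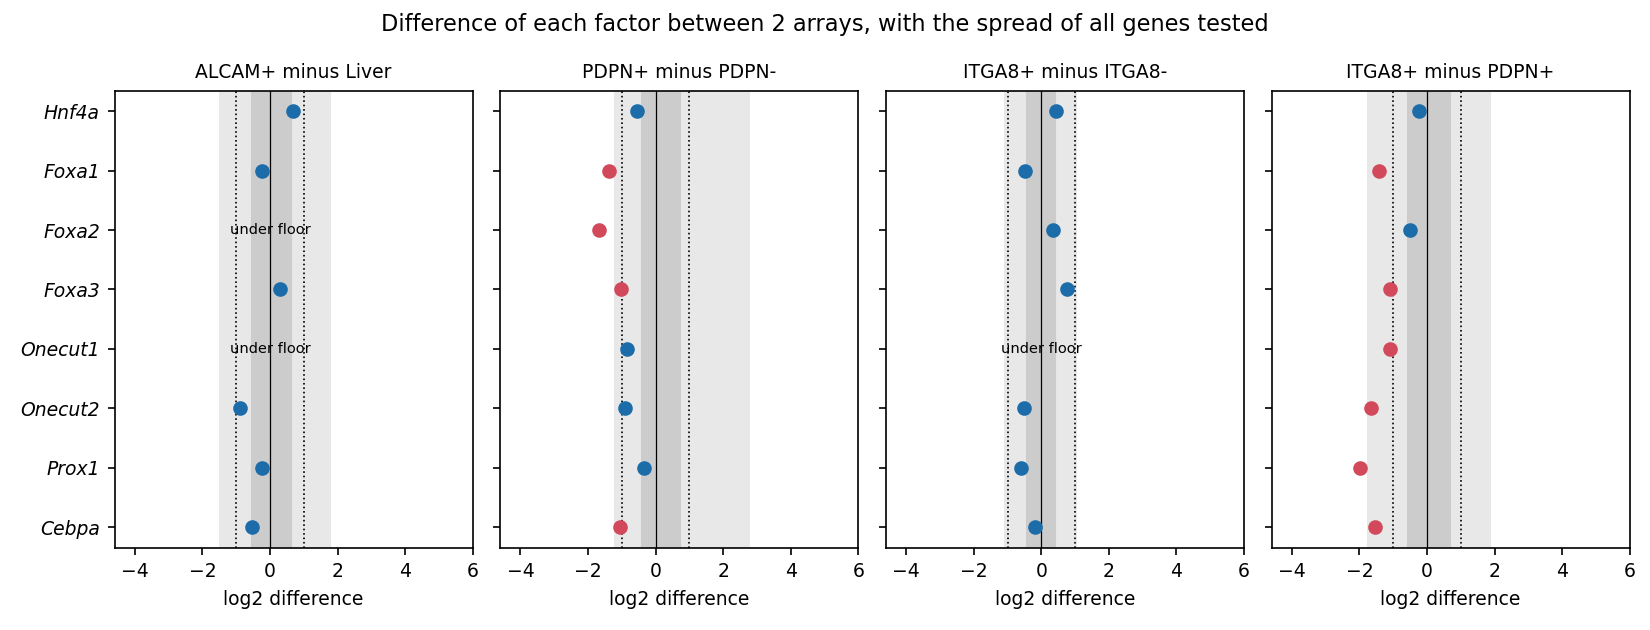
Difference in log2(intensity + 16) of each factor between 2 arrays in 4 comparisons (ALCAM+ minus Liver after subtracting the median of all genes); red points are past 2-fold (dotted lines), and bands hold the central 50% (dark) and 90% (light) of all genes tested. All points lie left of 0 in PDPN+ minus PDPN- and in ITGA8+ minus PDPN+, and on both sides in the other panels.

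The fractions positive for either surface protein were compared directly. This comparison shares an array with each split, and marker and split cannot be told apart in it. All 8 factors were lower in ITGA8+ cells and 6 were called, against 14.1% of 14087 genes called lower and 16.1% higher. The differences were -1.98 for Prox1, -1.65 for Onecut2, -1.54 for Cebpa, -1.41 for Foxa1, -1.11 for Foxa3 and -1.09 for Onecut1, with Foxa2 (-0.50) and Hnf4a (-0.25) inside 2-fold. The median was -1.26, beside 0.04 over all genes. By probe set 11 of 13 were called lower, against 15.5% of all. Onecut1, close to the floor, lost the call with a pseudocount of 64 (-0.82), and Hnf4a gained it with averaged probe sets (-1.04). Cdh1 (-2.51), the epithelial cadherin gene, Ahsg (-1.97), Fgg (-1.58) and F2 (-1.22), plasma protein genes, were among 6 of 23 structural and secreted genes called lower. Among other liver factors 7 of 20 were called lower, including Sall4 (-1.71), a fetal progenitor factor, and 2 higher, Nr1h4 (2.73) and Cebpd (1.55). Myeloid markers were also called lower in ITGA8+ cells, in 9 of 11 tested (median -3.96), with 0 higher. Cardiomyocyte markers had 2 of 4 lower and 1 higher, and endothelial markers 0 of 8 lower and 2 higher. The part of these cell types in the factor differences was not tested.

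Comparisons across the sorts that leave out the PDPN- array or exchange it were added after the data were seen. In these too, marker and split cannot be told apart. ITGA8- against PDPN+ cells, which does not use PDPN-, had 8 of 8 factors lower and 5 called: Foxa3 3.67-fold, Onecut1 2.69-fold, Prox1 2.62-fold, Cebpa 2.53-fold and Onecut2 2.21-fold, where 8.28% of 13896 genes were called lower. Upward, 8.90% of genes were called and none of the factors. Averaging probe sets left 3 of 7 tested, against 7.10% of genes, and 8 of 13 single probe sets were called, against 7.18% of all. Myeloid markers were lower in that comparison too, with 9 of 11 called (median -4.40). Of 3 cardiomyocyte markers 1 was called lower, while 2 of 10 endothelial markers were called higher. Against PDPN- cells all 8 factors were called lower in ITGA8+ (18.6% of genes lower, 22.5% higher) and in ITGA8- cells (13.9% lower, 19.8% higher), relative to median shifts of 0.23 and 0.22. By probe set 14 of 15 and 15 of 15 were called, against 18.1% and 13.2% of all. The differences ran from 2.02-fold for Hnf4a to 8.20-fold for Foxa1 in ITGA8+, and from 2.69-fold for Hnf4a to 8.60-fold for Foxa3 in ITGA8- cells. Hnf4a in ITGA8+ cells lost its call as deposited (-0.78), with loess (-0.72), with quantile normalisation (-0.83) and with the higher floor (-0.78), and narrowly with a pseudocount of 64, but was at -2.44 with averaged and -2.67 with specific probe sets. Erythroid markers moved opposite to the factors between the sorts: their summed intensity over 8 genes was 41054 in ITGA8+ and 28404 in ITGA8- cells, but 4154 in PDPN+ and 1921 in PDPN- cells, and 8 of 8 were called higher in ITGA8+ than in PDPN+ cells (median 3.12). The part of erythroid RNA in the lower factor levels of the integrin arrays was not tested.

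**Figure D4:**
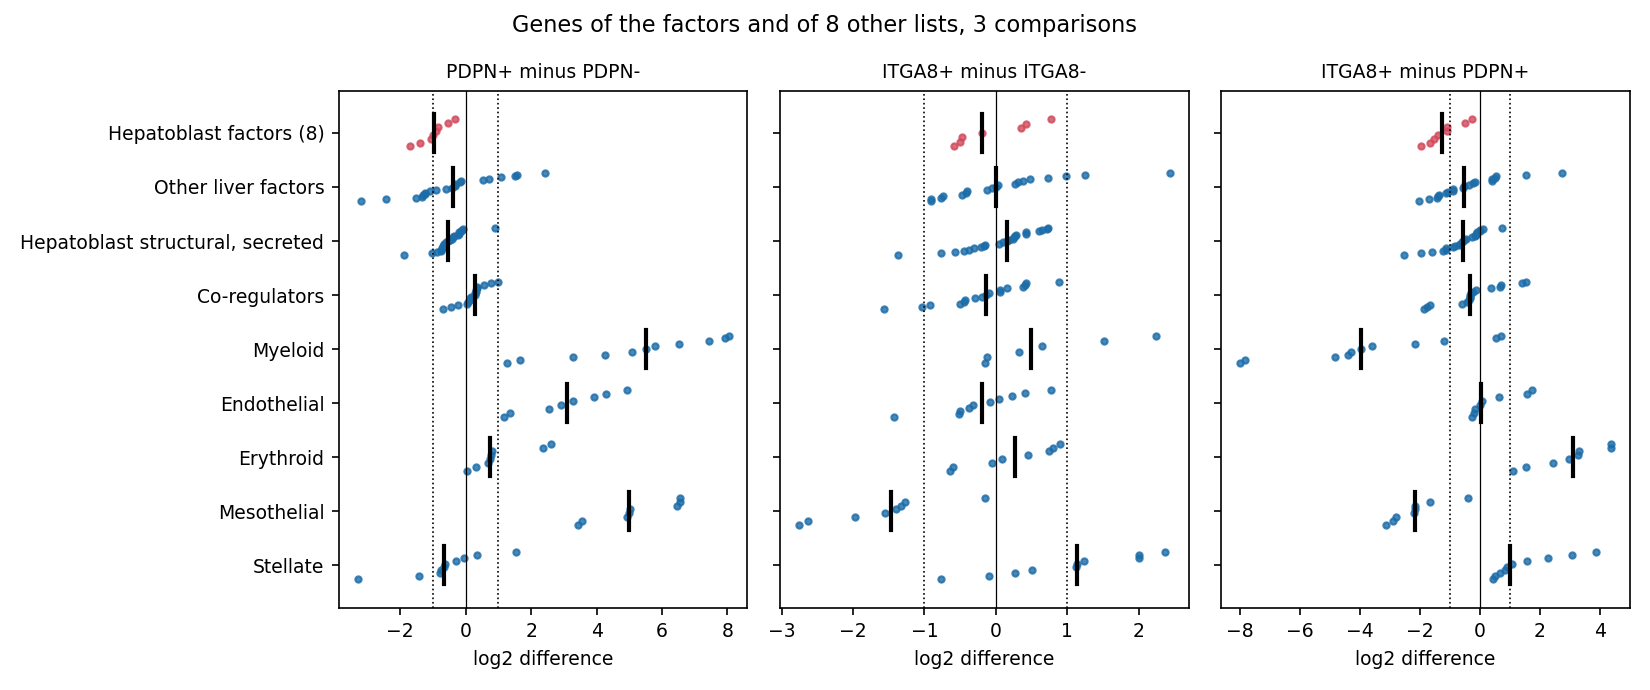
Difference in log2(intensity + 16) of every tested gene of the 8 factors (red) and of 8 other lists (blue) in 3 comparisons of single arrays; black bars are list medians and dotted lines mark 2-fold. The factors lie left of 0 in both panels that involve PDPN+ cells, whereas myeloid, endothelial and mesothelial genes lie far to the right in PDPN+ minus PDPN-.

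The initial sort was read by setting the ALCAM+ array against whole liver. None of the 6 factors above the floor was called relative to the median shift of all genes, 0.90, where 15.4% of 10989 genes were higher and 11.3% lower. On that footing Hnf4a was at 0.69 and Foxa3 at 0.30, and Foxa1 (-0.22), Prox1 (-0.24), Cebpa (-0.53) and Onecut2 (-0.87) were below 0; as deposited, without the shift, these 4 turned to 0.67, 0.65, 0.37 and 0.02, and Hnf4a (1.59) and Foxa3 (1.19) passed 2-fold, as did 45.0% of genes upward and 2.60% downward. Of 8 member probe sets above the floor 1 was called lower, against 11.8% of all. The median of the factors was -0.23. Foxa2 and Onecut1 were under the floor in both arrays. Among other liver factors 2 of 14 were called, Gata4 (2.47) and Gata6 (2.15), both higher in ALCAM+ cells. Of 22 structural and secreted genes 3 were called higher, among them Cps1 (1.88), of the urea cycle, and Krt8 (1.15), a simple epithelial keratin. Tdo2 (-2.49), tryptophan dioxygenase, was lower, at 26 in ALCAM+ cells and 111 in liver, just above the floor. Erythroid markers were called lower in 6 of 8 and mesothelial markers higher in 7 of 7.

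Genes of like pattern were found for each factor among 11156 genes above the floor in all 4 fractions, by distance over the 4 centred log2 levels. With 4 arrays many genes share such a shape, so the names are a description. Nearest to Hnf4a were Itih2, a plasma protease inhibitor chain (0.045), Mcfd2, a cargo receptor subunit for clotting factors (0.064), and Antxr2, an anthrax toxin receptor (0.070). Nearest to Cebpa were Fkbp11, an endoplasmic reticulum foldase (0.013), Sall1, a zinc finger repressor (0.037), and F10, coagulation factor X (0.044). For Foxa1 they were Aqp11, an aquaporin (0.090), Exoc3l4 (0.099) and Cmtm8 (0.134), for Foxa2 Fam20a (0.119), Slc23a1, a vitamin C transporter (0.126), and Pla2g7 (0.153), and for Foxa3 Hgd, of tyrosine breakdown (0.082), Hc, complement C5 (0.128), and Tst (0.146). Onecut2 lay closest to Serpind1, heparin cofactor II (0.101), Lurap1l (0.101) and Slc39a14, a zinc and manganese transporter (0.116), and Prox1 to Plcb1 (0.087), Nabp1 (0.125) and Slc35f5 (0.142).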

How the data were processed

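Total RNA (20 ng per sample, per the labels' protocols) was amplified, biotin labelled and hybridised to 6 arrays. The authors deposited linear intensity values in whole numbers for 45101 probe sets; RMA and Partek are named in the submitters' processing notes, without versions. These were log2 transformed here, after adding 16. Left out were 64 control probe sets, 5746 that named no gene and 1280 that named several. Symbols came through Entrez identifiers from the RefSeq table of GRCm38.p6 (92.1% of probe sets matched; the others kept the deposited symbol). Python 3.11.15, pandas 2.3.3, numpy 2.4.6, statsmodels 0.14.6 (loess, span 0.3) and matplotlib 3.10.9 were used. A median difference over 0.1 was subtracted. The code that makes the 2-fold calls was tested on simulated data with known changes. Precision is limited by the number of arrays.

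Members and lists were chosen with earlier results of these data known. Named genes were all 8 members, up to 4 genes of a list past 2-fold by size in a comparison, markers at or under the floor in every array, and the 3 genes nearest in pattern to each member. S100a8, Mpo, Flt4, Myl7 and Nkx2-1 levels in the marker check, and Hand2, Lrat, Ngfr, Zbtb20 and Zhx2, were picked or placed after values were seen. Alternatives were pseudocount, floor, scaling, probe set choice, unit and fold. Protein sequences were not used here, and some genes of the lists are counted but not reported here by name.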

Additional observations from a re-analysis of the deposited data

How the results depend on the processing

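No paired analysis was possible because each group has 1 array and the labels carry no replicate numbers. PDPN- remained the highest fraction for 8 of 8 factors with quantile normalisation, averaged or specific probe sets and no floor, and for 7 of 7 with the floor at the 75th percentile. The podoplanin arrays stayed above the integrin arrays for 7 of 8 with averaged probe sets and for all factors tested under the other 4 settings. Of 536 single factor results read under another setting, 472 kept their sign and stayed called or uncalled, and 31 lost and 25 gained the call. Another 8 changed sign within 2-fold, and 0 called ones reversed. The 4-fold and 1.5-fold settings are included, and these moved the threshold while leaving the differences unchanged. The causes were not tested.

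Other settings moved counts as follows. At 4-fold, 0 factors were lower in PDPN+ minus PDPN- (from 4), where 0.80% of genes were. In ITGA8+ minus PDPN+ 0 were lower (from 6, median -1.26), where 3.44% of genes were. ITGA8- minus PDPN+ also had 0 (from 5, median -1.24), where 1.90% of genes were. At 1.5-fold, 8 were lower in ITGA8- minus PDPN+, 1 was higher and 1 lower both in ITGA8+ minus ITGA8- and in ALCAM+ minus Liver, and the median of -0.96 in PDPN+ minus PDPN- passed the threshold. With probe sets as the unit, shares of all probe sets stand in brackets. The lower counts were 9 of 15 in PDPN+ minus PDPN- (7.65%, member median -1.05) and 11 of 13 in ITGA8+ minus PDPN+ (15.5%). They were 14 of 15 in ITGA8+ minus PDPN- (18.1%) and 8 of 13 in ITGA8- minus PDPN+ (7.18%). In ITGA8- minus PDPN- 15 of 15 were lower (13.2%), and in ALCAM+ minus Liver 1 of 8 (11.8%). Averaged probe sets gave 7 lower and a median of -1.22 in PDPN+ minus PDPN-, where 7.38% of genes were lower. In ITGA8- minus PDPN+ they gave 3 and -0.94, where 7.10% of genes were lower. In PDPN+ minus PDPN- the median was -1.01 with the higher floor and -1.03 with specific probe sets. In ALCAM+ minus Liver, 2 were higher as deposited (median 0.66), beside 45.0% of genes. With no floor 1 was higher and 1 lower (median 0.049), beside 15.5% and 6.18% of genes. With loess 1 was lower (10.9% of genes), and with quantile normalisation 1 (14.5%). The median was 0.21 with the higher floor and 0.18 with averaged probe sets. With no floor the ITGA8+ minus ITGA8- median was 0.070.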

Other observations

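Co-regulators of these factors, 17 genes measured, followed another pattern. In PDPN+ minus PDPN- cells none was called (median 0.28), beside 7.82% of all genes lower and 19.8% higher. The factors had a median of -0.96 there. In ITGA8+ minus PDPN+ cells Ppargc1a, a coactivator of HNF4A (-1.86), Hdac3, a histone deacetylase (-1.76), and Med14, a Mediator subunit (-1.65), were lower, and Trib2, a pseudokinase that degrades C/EBP alpha (1.55), was among 2 that were higher. Between the integrin fractions Hdac3 (-1.56) and Trib1 (-1.03), of the same pseudokinase family, were lower in ITGA8+ cells. In ALCAM+ cells relative to the shift, Ncoa1, a steroid receptor coactivator (1.38), was among 2 that were higher. Co-regulators called lower and higher in ITGA8+ minus PDPN+ were 3 and 2 of 17, where 14.1% and 16.1% of all genes were. Between the integrin fractions 2 of 17 were lower, beside 5.94% of genes. In ALCAM+ minus Liver 2 of 17 were higher, beside 15.4% of genes. Ppargc1a was at 2474 and 2933 in PDPN+ and PDPN- cells and at 670 and 510 in ITGA8+ and ITGA8- cells, so both podoplanin arrays lay above both integrin arrays, as with the factors.

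Biliary markers went against the factors in the podoplanin split. Krt7 (5.71) and Krt19 (4.98), keratins of bile duct and mesothelium, and Spp1, osteopontin (2.25), were called higher in PDPN+ cells among 6 tested, and the same 3 were lower in ITGA8+ than in ITGA8- cells (-2.12, -2.64 and -1.71). Of 8 cardiomyocyte markers 3 were tested in the podoplanin split and all 3 were higher in PDPN+ cells, with Myl7, an atrial myosin light chain, at 5.76; Nppa, Myh6, Myh7 and Nkx2-5, and the biliary gene Cftr, were under the floor in every array.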
